A study of Mus musculus with 4 samples.

Results

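The genes described here are 10 imprinted genes from 5 loci of the mouse genome, chosen by symbol from a fixed list: Dlk1, Meg3, Rian, Mirg, H19, Igf2, Peg3, Peg10, Ndn and Snrpn. All 10 were present among the 24340 genes with a value in every library. Of these 10, 4 are expressed from the maternal allele (Meg3, Rian, Mirg and H19) and 6 from the paternal allele (Dlk1, Igf2, Peg3, Peg10, Ndn and Snrpn). This assignment is textbook knowledge. The files hold no allele-specific values, so which allele was expressed in these cells was not measured.

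The cells were CAD cells, a mouse neuronal line of catecholaminergic origin, kept for 5 days in medium without serum. One group (2 libraries) received the solvent DMSO for 24 h, and the other (2 libraries) received for 24 h the ACSS2 inhibitor at 20 µM, a quinoxaline with a urea group, called ACSS2i below. ACSS2 is the enzyme that makes acetyl-CoA from acetate outside mitochondria. All 4 libraries were made from polyadenylated RNA of this 1 cell line. Separate cultures are not named for the libraries of either group, so the p-values measure only the spread between libraries, which may be technical. The deposited values carry no unit and were taken as FPKM, fragment counts scaled to transcript length and library size. The lowest value in the table was 0.01.

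An imprinted gene is expressed mainly from the copy inherited from one parent, because the maternal and paternal copies differ in a methylation mark set in the germ line. Such genes lie in clusters that share a control region, so that neighbours are often expressed from opposite alleles. Many of them act on growth and on the development of brain and placenta. In the cluster between Dlk1 and Dio3 the paternal copy makes the proteins Dlk1, Rtl1 and Dio3, and the maternal copy makes the long noncoding RNAs Meg3, Rian and Mirg together with many microRNAs and small nucleolar RNAs. At the H19 and Igf2 locus the paternal copy makes the growth factor Igf2 and the maternal copy the noncoding RNA H19.

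The libraries were not equally deep. With the depth of DMSO replicate 1 set to 1, the low values put its partner at 0.292 and the 2 inhibitor libraries at 0.675 and 0.857, a nominal 3270000 to 11200000 reads, so 1 read in a transcript of 3 kb was worth 0.0297 to 0.102 FPKM. Of 8 neuronal markers 7 had a mean of at least 1 FPKM, and so did 7 of 8 catecholaminergic markers, while 0 of 5 astrocyte, 0 of 5 microglia and 0 of 5 fibroblast markers and 2 of 5 oligodendrocyte markers did. The summed astrocyte markers ran from 0.174 to 0.438 FPKM in DMSO and from 0.521 to 1.32 FPKM in ACSS2i. The 10 G2 and mitosis genes examined lay above both DMSO libraries in both inhibitor libraries, with sums of 6.92 and 15.3 FPKM with DMSO, against 76.2 and 168 with ACSS2i. Their part in the results below was not tested.

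The mean level of the 10 genes ran from 0.0402 to 106 FPKM, and the 3 highest were paternally expressed. Peg10, a domesticated retrotransposon gene needed for placental development, had the highest mean of the 10, at 106 FPKM, followed by the zinc finger gene Peg3 at 35.5 FPKM and by Snrpn, which encodes a core protein of spliceosomal ribonucleoproteins, at 25.9 FPKM. The 3 maternally expressed RNAs of the Dlk1 cluster came next, with Rian at 4.71, Mirg at 2.13 and Meg3 at 2.04 FPKM. Igf2 had a mean of 0.598 FPKM. Dlk1 had 0.104, Ndn 0.0724 and H19 0.0402 FPKM, values that correspond to very few reads. Ranked among all genes within each library, Peg10 stood between the 94.3 and 97.9 percentile, Peg3 between 87.1 and 92.8, Snrpn between 80.0 and 90.5, and Meg3 between 53.2 and 62.9. Rian was the highest of these 3 in every library, though only by a factor of 1.08 over Meg3 in ACSS2i replicate 1. The Mirg to Meg3 ratio was 1.64 and 1.53 in DMSO and 0.506 and 0.794 in ACSS2i. The order of Meg3 and Mirg is thus not fixed by the data.

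**Figure D1:**
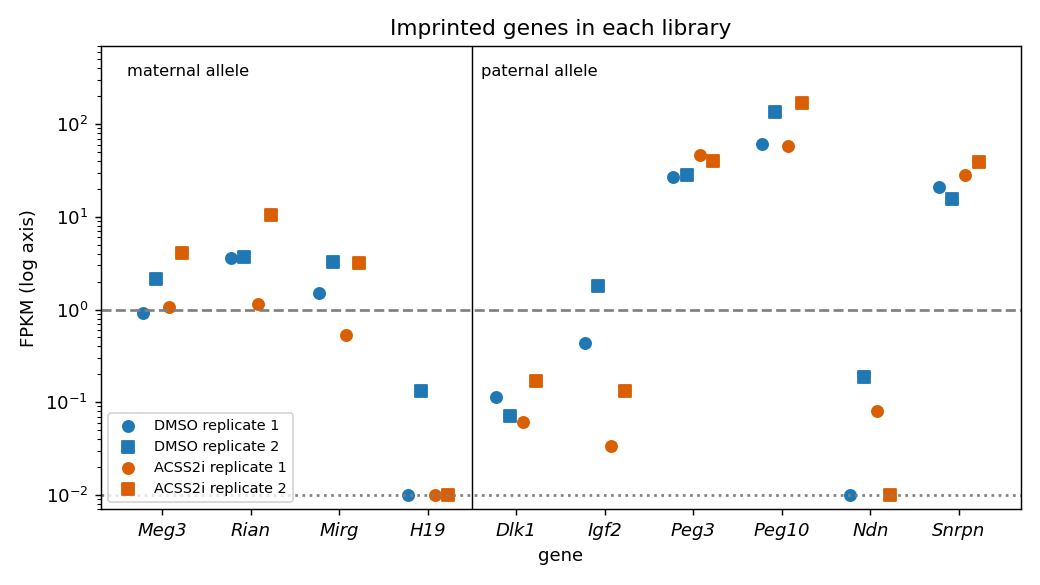
FPKM on a log axis of each of the 10 genes in each library (blue DMSO, orange ACSS2i; circles replicate 1, squares replicate 2), with the maternally expressed genes on the left. The dashed line marks the mean of 1 FPKM needed for testing and the dotted line the lowest value in the table, 0.01. Peg3 and Snrpn were higher in both inhibitor libraries and Igf2 was lower in both.

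Between the groups, 0 of the 10 genes passed limma at an adjusted p under 0.05. Of the 10, 6 had a mean of at least 1 FPKM and were tested, namely Meg3, Rian, Mirg, Peg3, Peg10 and Snrpn. Across all 11486 genes tested 3 passed, 0.0261% of them, 0.0174% higher and 0.00871% lower. At an unadjusted p under 0.05 there were 2 of the 6, Peg3 and Snrpn, both higher with the inhibitor, where 6.96% of all genes tested fell under that limit, 3.29% higher and 3.67% lower. The groups did not overlap for the same 2 genes, where 37.3% of all genes tested did not overlap, 19% higher and 18.3% lower. With 2 libraries a group, exact permutation reaches no p below 0.333, so it was not used for single genes.

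The maternally and paternally expressed genes are set side by side only as a description. Of the 3 tested maternally expressed genes, 2 had a positive log2 fold change and 1 a negative one, 0 had groups that did not overlap, and the median log2 fold change was 0.0945. Of the 3 tested paternally expressed genes, 3 were positive, 2 had inhibitor libraries above both DMSO libraries, and the median was 0.645. Over all genes tested the median was 0.0198 and 52.2% were positive and 47.8% negative. The maternal median rested on single libraries: it was 1.04 without ACSS2i replicate 1 and -1.09 without ACSS2i replicate 2. The paternal median came from Peg3, and 3 further paternally expressed genes (Dlk1, Igf2 and Ndn) were too low to enter it. With all 6 in a fit without a filter it was 0.0737. The difference between the maternal and paternal genes was not tested.

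Peg3, a zinc finger protein of neurons and of placenta that lies at chr7:6703892-6730431 on the minus strand (GENCODE M21, GRCm38, the same assembly as mm10), was at 26.8 and 28.0 FPKM with DMSO, against 46.8 and 40.3 with ACSS2i. Both inhibitor libraries stood above both DMSO libraries, and within each group the replicates lay close together, at 27.4 ± 0.906 and 43.5 ± 4.60 FPKM (SD, n = 2 each). The log2 fold change, on log2(FPKM + 1) as everywhere below, was 0.64 ± 0.23 (SE; limma, unadjusted p = 0.0296, adjusted p = 0.646). It stayed between 0.54 and 0.75 under the alternative settings, with adjusted p from 0.325 to 1.

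Peg3os, a noncoding RNA annotated at the same locus, was at 44.7 and 40.1 FPKM with DMSO, against 80.0 and 57.1 with ACSS2i. It thus also stood higher in both inhibitor libraries, with a log2 fold change of 0.66 ± 0.27 (SE; limma, adjusted p = 0.714) that was 0.42 without ACSS2i replicate 1. The ratio of Peg3 to Peg3os varied little, at 0.599 and 0.700 in DMSO and 0.585 and 0.706 in ACSS2i. Whether the deposited values were counted by strand is not given in the sources used here, so reads of overlapping genes on opposite strands cannot be told apart. Usp29, a paternally expressed gene that starts beside Peg3 and is read in the other direction, was low and overlapped between the groups, at 0.720 and 0.898 FPKM with DMSO, against 1.54 and 0.445 with ACSS2i. Zim3, annotated as a noncoding RNA, overlaps the far end of Usp29 on the opposite strand, so the same limit on strand holds for this pair. It was at 0.736 and 0.811 FPKM with DMSO, against 2.49 and 0.582 with ACSS2i, and its groups overlapped.

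The start of Peg3 is shown because Peg3 and Usp29 diverge from it and differed in level by more than an order of magnitude. The 300 bases around the RefSeq start (250 before and 50 after) lie at chr7:6730370-6730669 (GRCm38.p6, minus strand) and share 263 bases with the window of Usp29. Capitals mark the palindrome TGACGTCA, the letters of a cyclic AMP response element, which begins 178 bases before the start.
Peg3 promoter: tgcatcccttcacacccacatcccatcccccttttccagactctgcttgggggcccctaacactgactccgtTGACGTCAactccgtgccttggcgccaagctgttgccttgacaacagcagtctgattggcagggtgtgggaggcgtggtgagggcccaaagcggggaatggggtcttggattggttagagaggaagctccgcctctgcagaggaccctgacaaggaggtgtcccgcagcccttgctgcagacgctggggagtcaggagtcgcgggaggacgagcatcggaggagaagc
This 8-base palindrome, which reads the same on both strands, was found in 1.79% of the 32851 RefSeq promoter windows of this length. The Peg3 window holds 13 CpG dinucleotides, the sites at which an imprint can be methylated, and 37.9% of all windows hold at least as many (median 7). A match is a description of the letters only, and methylation was not measured.

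Snrpn, at chr7:59982495-60140219 on the minus strand, was at 21.0 and 15.7 FPKM with DMSO, against 28.3 and 38.8 with ACSS2i. All inhibitor values lay above all DMSO values, at 18.3 ± 3.76 against 33.5 ± 7.48 FPKM (SD, n = 2 each). The log2 fold change was 0.83 ± 0.28 (SE; limma, unadjusted p = 0.0236, adjusted p = 0.618), between 0.61 and 1.06 under the alternative settings with adjusted p from 0.249 to 1. Snurf, a short reading frame encoded on the same transcript, had its own row with 1.58 and 7.0 FPKM with DMSO, against 2.26 and 2.40 with ACSS2i. Its groups overlapped, and the ratio of Snrpn to Snurf ran from 2.24 in DMSO replicate 2 to 16.2 in ACSS2i replicate 2. Snrpn and Snurf share exons, and how the authors' tool divided reads between them is not known, so the value of either is uncertain.

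Of the other transcripts of this chromosome 7 domain with a mean of at least 1 FPKM, Ipw had both inhibitor libraries higher, Mkrn3 and A230057D06Rik had both lower, and the rest overlapped. Snhg14, the long paternal host transcript of small nucleolar RNAs that runs on towards Ube3a, was at 9.10 and 6.98 FPKM with DMSO, against 7.51 and 10.6 with ACSS2i, with overlapping groups. Ube3a, a ubiquitin ligase expressed from the maternal copy in neurons, was at 31.1 and 44.7 against 47.1 and 34.7 FPKM, also overlapping. Ipw, a noncoding RNA of the domain, was at 4.81 and 3.61 FPKM with DMSO, against 13.2 and 4.92 with ACSS2i, where ACSS2i replicate 1 alone stood far from the rest (log2 fold change 0.82 ± 0.44, SE; limma, adjusted p = 0.788, and 0.19 on the log2 scale without that library). Mkrn3, a paternally expressed RING finger gene, went the other way, with 5.01 and 5.00 FPKM with DMSO, against 2.51 and 3.20 with ACSS2i (log2 fold change -0.65 ± 0.26, SE; limma, unadjusted p = 0.0451, adjusted p = 0.708). A230057D06Rik, a noncoding RNA, was at 4.76 and 4.99 against 4.05 and 3.04 FPKM. The pseudogene Gm7367 and the noncoding RNAs B230209E15Rik and A330076H08Rik overlapped between the groups, with log2 fold changes of -0.10, -0.26 and -0.35. All 15 microRNA and small nucleolar RNA rows of the interval were at the lowest value in every library.

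Ndn, which encodes the neuronal growth suppressor necdin at chr7:62346569-62350262, was close to absent. It was at 0.01 FPKM, the lowest value in the table, in DMSO replicate 1 and ACSS2i replicate 2, at 0.188 FPKM in DMSO replicate 2 and at 0.0813 FPKM in ACSS2i replicate 1. Scaled by depth the last 2 values are equal, as 1 read in each library would be. That step implies a transcript of 1630 bases, while the longest annotated one has 3694, so each may stand for more than 1 read. Taking the step as 1 read, a count of 0 allows up to 3 reads, or 0.165 FPKM in DMSO replicate 1 and 0.192 FPKM in ACSS2i replicate 2, so no difference between the groups was detectable at this depth. Its neighbour Magel2, a related gene of the same protein family, was at 0.0534 and 0.427 FPKM with DMSO, against 0.01 and 0.0415 with ACSS2i.

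Peg10, at chr6:4747306-4760517 on the plus strand, differed more between replicates than between groups. It was at 61.6 and 135 FPKM with DMSO, against 58.7 and 168 with ACSS2i. Replicate 2 was the higher library in both groups, by a factor of 2.19 in DMSO and 2.85 in ACSS2i, and the groups overlapped. The log2 fold change was 0.12 ± 0.59 (SE; limma, adjusted p = 0.979), from -0.63 without ACSS2i replicate 2 to 0.87 without ACSS2i replicate 1. Sgce, a sarcoglycan gene that starts next to Peg10 and is also expressed from the paternal copy, was at 40.4 and 40.7 FPKM with DMSO, against 28.5 and 44.2 with ACSS2i. The Peg10 to Sgce ratio was 1.52 and 3.32 in DMSO and 2.06 and 3.79 in ACSS2i, so the larger swings of Peg10 were not matched by its neighbour. Among 8661 other genes whose mean reached 5 FPKM, the 5 profiles nearest to that of Peg10 over the 4 libraries were those of Nudt7, Ckb, 5330426P16Rik, P2rx3 and Tpm4. Their Euclidean distances, between log2(FPKM + 1) profiles centred over the libraries, were 0.245, 0.262, 0.278, 0.339 and 0.368, and 24 genes lay within 0.5.

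In the cluster between Dlk1 and Dio3 on chromosome 12 the libraries also differed more than the groups. The interval of 829 kb held 77 rows of the table, 68 of them microRNA or small nucleolar RNA genes, and 5 of the other 9 had a mean of at least 1 FPKM. Those 5 were Meg3, Rian, Mirg, Rtl1 and the noncoding RNA 6430411K18Rik.

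Meg3, a maternally expressed noncoding RNA described as a growth suppressor, at chr12:109541001-109571726, was at 0.929 and 2.11 FPKM with DMSO, against 1.06 and 4.05 with ACSS2i. Replicate 2 was the higher library in both groups and the groups overlapped, with a log2 fold change of 0.40 ± 0.51 (SE; limma, adjusted p = 0.912). Rian, which hosts small nucleolar RNAs, at chr12:109603940-109661716, was at 3.57 and 3.71 FPKM with DMSO, against 1.15 and 10.4 with ACSS2i. The DMSO libraries lay between the inhibitor libraries, which differed by a factor of 9.07, and the log2 fold change was 0.09 ± 0.74 (SE; limma, adjusted p = 0.987). Mirg, which hosts the microRNAs of the far part of the cluster, at chr12:109729764-109749460, was at 1.52 and 3.24 FPKM with DMSO, against 0.538 and 3.22 with ACSS2i. ACSS2i replicate 1 was its lowest library, and the log2 fold change was -0.36 ± 0.55 (SE; limma, adjusted p = 0.932). None of the 3 kept its direction when each library was left out in turn: without ACSS2i replicate 2 the log2 fold change was -0.25 for Meg3 and -1.11 for Rian, and without ACSS2i replicate 1 it was 0.37 for Mirg.

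Of the paternally expressed protein-coding genes of the cluster, Dlk1 and Dio3 were low or at the lowest value and Rtl1 was not. Dlk1, a membrane protein with EGF-like repeats that keeps precursor cells undifferentiated, at chr12:109452823-109463336, was at 0.115 and 0.0706 FPKM with DMSO, against 0.0610 and 0.168 with ACSS2i. With the lowest step taken as 1 read, these came to about 6, 1, 2 and 7 reads, and the value for DMSO replicate 1 was not whole (5.59). Both groups overlapped, and Meg3 exceeded Dlk1 by a factor of 8.07 and 29.9 with DMSO and 17.4 and 24.1 with ACSS2i. Dio3, the deiodinase that inactivates thyroid hormone, was at 0.01 FPKM in all 4 libraries. Rtl1, a retrotransposon-derived protein gene, stood in the range of the maternal RNAs at 1.64 and 3.19 FPKM with DMSO, against 0.584 and 4.10 with ACSS2i. 6430411K18Rik, a noncoding RNA annotated over the same stretch, was at 2.43 and 4.66 against 1.61 and 5.23 FPKM. Whether values were counted by strand is not given, so the Rtl1 value may include reads of this RNA.

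**Figure D2:**
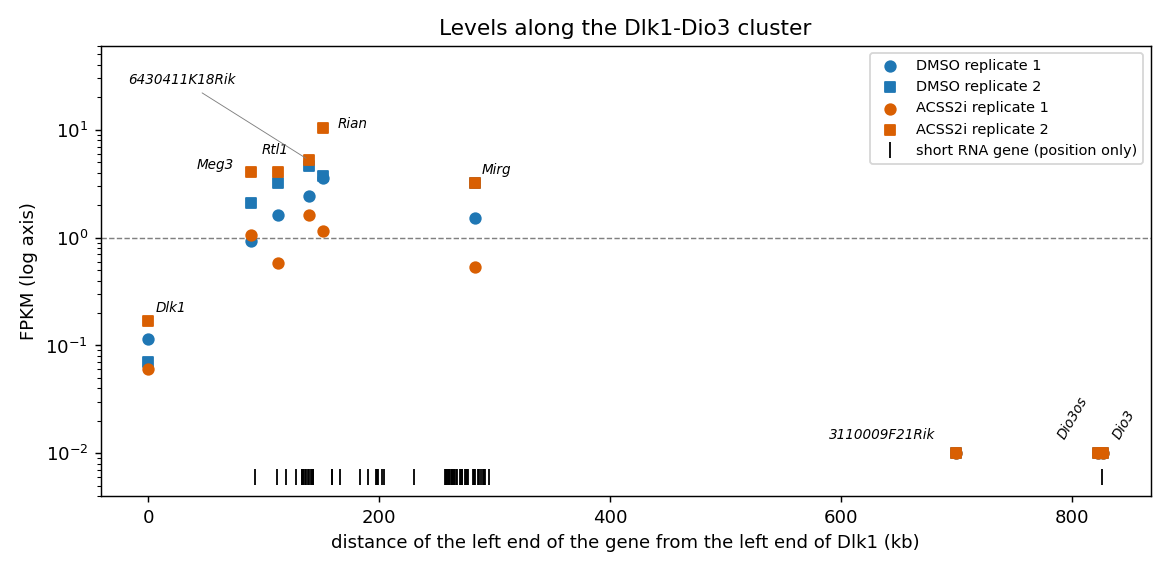
FPKM on a log axis against the distance in kb from the left end of Dlk1 for the 9 transcripts of the cluster that are not short RNAs, 1 point per library (blue DMSO, orange ACSS2i; circles replicate 1, squares replicate 2). Ticks at the bottom mark the positions of the short RNA genes and not their levels. Dlk1 stood near 0.1 FPKM and Dio3 at 0.01, while the 5 transcripts between Meg3 and Mirg ran from 0.538 to 10.4 FPKM.

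The microRNA genes opposite Rtl1 are shown because they bear on how its value can be read. A search of 1738 mature RefSeq microRNAs against the Rtl1 transcript (6358 bases) found 11, from 6 hairpins, whose full reverse complement lies in it, in stretches of 21 to 23 bases. These hairpins (Mir431, Mir433, Mir127, Mir434, Mir432 and Mir136) lie on the plus strand within the Rtl1 gene, which is on the minus strand. For 3 of them the mature microRNA is given with its seed (bases 2 to 8) in capitals, followed by the site in Rtl1 with the bases opposite the seed in capitals. The positions (GRCm38.p6) are chr12:109591781-109591802 for miR-433-3p, chr12:109594565-109594586 for miR-434-3p and chr12:109592888-109592909 for miR-127-3p.
mmu-miR-433-3p: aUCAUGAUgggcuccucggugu
Rtl1 site of mmu-miR-433-3p: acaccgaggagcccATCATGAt
mmu-miR-434-3p: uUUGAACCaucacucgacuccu
Rtl1 site of mmu-miR-434-3p: aggagtcgagtgatGGTTCAAa
mmu-miR-127-3p: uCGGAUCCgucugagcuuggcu
Rtl1 site of mmu-miR-127-3p: agccaagctcagacGGATCCGa
The 3 seeds differ from one another, and 0 other mature mouse microRNAs in the RefSeq table share any of them. Each site is the exact complement over 22 bases, being the other strand of the same positions. Reads of the maternal microRNA host transcript and of paternal Rtl1 could therefore fall on the same bases, and without strand they cannot be told apart.

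The short RNA genes have rows of their own, although poly(A) selection does not capture mature microRNAs. Of the 68 in the cluster 65 were at 0.01 FPKM in every library. Mir433 was at 0.01 FPKM in both DMSO libraries and at 28.7 and 9.73 FPKM in ACSS2i, Mir434 was at 448 FPKM in DMSO replicate 2 only, and Mir882 at 3453 FPKM in DMSO replicate 2 only. The number of reads behind these values was not worked out, so their size cannot be judged. DMSO replicate 2 was the shallowest library, and why these rows stood above the lowest value was not tested.

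**Figure D3:**
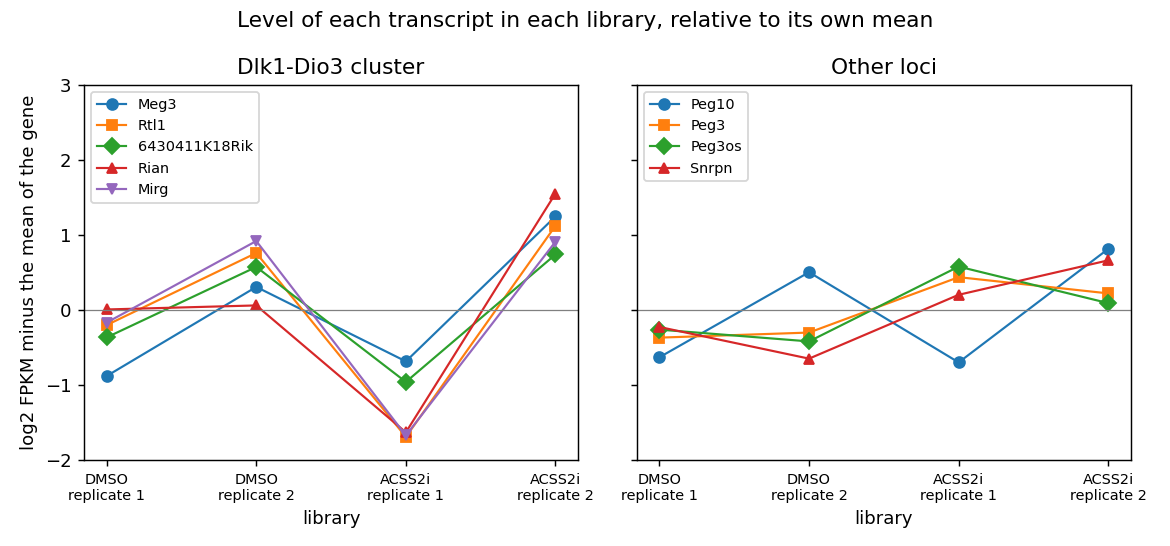
Log2 FPKM of each transcript minus its mean over the 4 libraries, for 5 transcripts of the Dlk1 cluster (left) and for Peg10, Peg3, Peg3os and Snrpn (right). Lines join the values of 1 transcript and do not imply an order of libraries. On the left, 4 of 5 were highest in ACSS2i replicate 2 and Mirg had 3.22 FPKM there against 3.24 in DMSO replicate 2, while Peg3, Peg3os and Snrpn stood above their DMSO values in both inhibitor libraries.

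Over the libraries the 5 transcripts shared some of their order and not all of it. ACSS2i replicate 2 was above DMSO replicate 1 and ACSS2i replicate 1 in all 5, DMSO replicate 2 likewise, and ACSS2i replicate 1 was the lowest library for Rian, Mirg, Rtl1 and 6430411K18Rik but not for Meg3, whose lowest was DMSO replicate 1. The sizes differed too: DMSO replicate 2 was 2.28 times replicate 1 for Meg3, 2.12 times for Mirg and 1.04 times for Rian, and the Rian to Meg3 ratio was 3.85 and 1.75 with DMSO and 1.08 and 2.57 with ACSS2i. This order was noticed in the data and has no test. ACSS2i replicate 1 was the lowest library in 17 of the 34 tested imprinted genes (the 6 above and 28 others), or 50.0%, and in 28.0% of all genes tested. It was also the lowest in 6 of the 7 tested neuronal markers, whose sum was 605 FPKM there and 895 and 930 FPKM in the DMSO libraries and 1282 FPKM in the other inhibitor library. In bulk RNA, fewer cells with a transcript and less RNA per cell cannot be told apart. The part of the neuronal markers in the levels of imprinted genes was not tested.

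Igf2, the growth factor at chr7:142650766-142666816 on the minus strand, had the widest spread of the 10 genes, a factor of 53.3 between its highest and lowest library. It was at 0.432 and 1.79 FPKM with DMSO, against 0.0337 and 0.133 with ACSS2i. Both inhibitor libraries lay below both DMSO libraries, at 0.0831 ± 0.0699 against 1.11 ± 0.963 FPKM (SD, n = 2 each). Its mean was under the limit for testing. In the fit without a filter the log2 fold change was -0.89 ± 0.42 (SE; limma, unadjusted p = 0.135, adjusted p = 1 over 24340 genes).

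The low values of Igf2 can be read as whole reads. With the value in ACSS2i replicate 1 taken as 1 read, the other libraries came to 19 reads in DMSO replicate 1, 23 in DMSO replicate 2 and 5 in ACSS2i replicate 2. The step implies a transcript of 3930 bases, where the longest annotated Igf2 transcript has 4722. Pooled, that makes 42 nominal reads in DMSO and 6 in ACSS2i. Divided by depth the DMSO libraries held 8.30 times as many, with a 95% exact binomial interval of 3.51 to 23.9. Of the low genes only Igf2 was given such an interval. It rests on the relative depths given above, which may be wrong by a whole factor. This interval covers counting error only and not the spread between libraries, which was large: the FPKM of replicate 2 was 4.15 times that of replicate 1 in DMSO and 3.94 times in ACSS2i.

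H19, the maternally expressed noncoding RNA downstream of Igf2 at chr7:142575529-142578143, was at 0.131 FPKM in DMSO replicate 2 and at 0.01 FPKM in the other 3 libraries. The value in DMSO replicate 2 matches 1 read in a transcript of 2340 bases, where the longest annotated one has 2286. A count of 0 allows up to 0.114 FPKM in DMSO replicate 1, 0.169 in ACSS2i replicate 1 and 0.133 in ACSS2i replicate 2, so H19 was not distinguishable between the groups. The 2 microRNA rows of the interval were at the lowest value throughout. Igf2os, an RNA antisense to Igf2, was at 0.0347 and 0.0595 FPKM in DMSO and at 0.01 FPKM in both ACSS2i libraries. These values lie near the lowest in the table, and the reads behind them were not worked out. No difference between the groups can be read from them. Reads of Igf2 and Igf2os also cannot be told apart without strand.

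**Figure D4:**
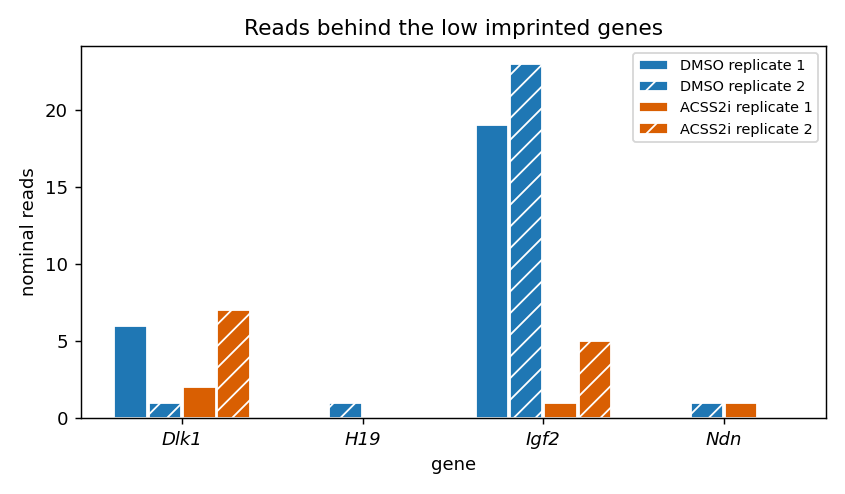
Nominal reads, rounded to whole numbers and not scaled by depth, behind the FPKM values of the 4 genes with a mean under 1 FPKM, 1 bar per library (blue DMSO, orange ACSS2i; hatched replicate 2). Igf2 had 19 and 23 reads in DMSO and 1 and 5 in ACSS2i, while H19 had 1 read in all and Ndn 2.

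Among 16 genes of insulin-like growth factor signalling and binding other than Igf2, 7 were tested and 0 passed limma over all genes. Of these 7, 6 were negative with a median log2 fold change of -0.24, 3 had inhibitor libraries below both DMSO libraries and 0 above. Over all genes tested 47.8% were negative, and 18.3% lay below and 19% above. All 3 belong by name to the insulin-like growth factor binding proteins. Igfbp4 was at 160 and 94.9 FPKM with DMSO, against 67.9 and 64.2 with ACSS2i (log2 fold change -0.89 ± 0.32, SE; limma, adjusted p = 0.651). Its log2 fold change was -0.52 without DMSO replicate 1. Igfbp6 was at 22.7 and 22.4 against 16.9 and 9.75 FPKM (log2 fold change -0.76 ± 0.30, SE; limma, unadjusted p = 0.0457, adjusted p = 0.711), and its log2 fold change was -0.39 without ACSS2i replicate 2. Igfbp7 was at 80.8 and 64.0 against 19.6 and 59.8 FPKM, so its mean in ACSS2i rested on replicate 1. Irs2, an adaptor of the insulin and Igf1 receptors, was at 26.0 and 43.9 against 35.8 and 55.6 FPKM, with overlapping groups. At an unadjusted p under 0.05 there were 2 of the 7, both lower, where 3.67% of all genes tested were lower and 3.29% higher.

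Other imprinted genes gave the setting for the 10. Of 57 further imprinted genes listed, 28 were tested, 11 were at 0.01 FPKM in all 4 libraries, and 0 of the 28 passed limma. At an unadjusted p under 0.05 there were 0 higher and 2 lower, Mkrn3 and Slc22a18, where all genes tested gave 3.29% and 3.67%. Of the 28, 21 were negative and 7 positive, with a median log2 fold change of -0.20. The 15 tested genes listed as paternally expressed had 13 negative and a median of -0.22. The 12 listed as maternally expressed had 7 negative and a median of -0.17. The positive values of Peg3 and Snrpn were thus not shared by most genes listed as paternally expressed. These parental labels are also textbook knowledge, and which allele of these genes was expressed in CAD cells was not measured. The groups did not overlap for 8 of the 28, 1 higher and 7 lower, against 37.3% of all genes tested, 19% higher and 18.3% lower.

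Slc22a18, a maternally expressed transporter gene, was at 4.46 and 4.82 FPKM with DMSO, against 2.99 and 2.21 with ACSS2i (log2 fold change -0.66 ± 0.27, SE; limma, adjusted p = 0.718). H13, a signal peptide peptidase expressed from the maternal copy, was at 73.4 and 95.3 against 50.6 and 58.3 FPKM, both inhibitor libraries being lower. Mest, a paternally expressed gene also called Peg1, was at 80.4 and 113 FPKM with DMSO, against 14.2 and 85.4 with ACSS2i. Its log2 fold change of -1.41 ± 0.77 (SE) came from ACSS2i replicate 1 and was -0.16 without that library.

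**Figure D5:**
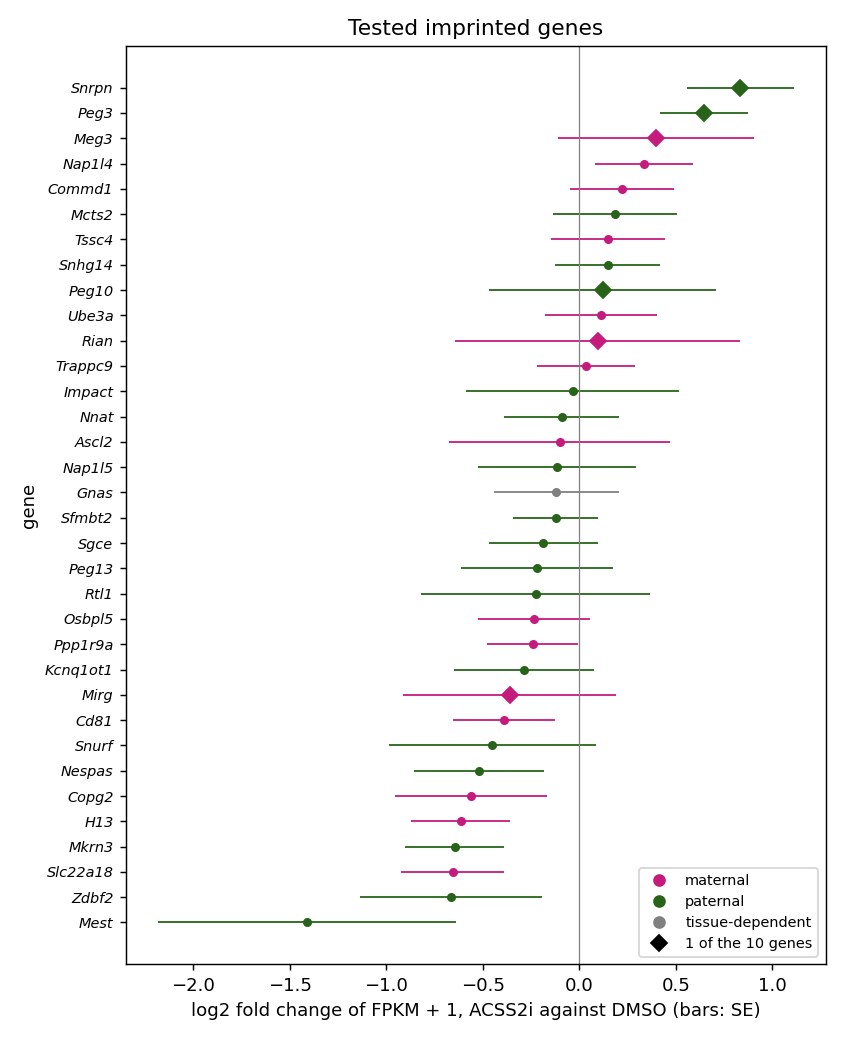
Log2 fold change of FPKM + 1 between ACSS2i and DMSO, with limma's standard error, for the 34 imprinted genes tested (diamonds mark the 6 tested of the 10 genes, circles the others; magenta maternal, green paternal, grey tissue-dependent). Snrpn at 0.83 and Peg3 at 0.64 were the 2 highest and Mest at -1.41 the lowest.

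The genes that set and keep imprints were mostly expressed. Of 20 such genes, 16 were tested and 0 passed limma over all genes, with 9 positive, 7 negative and a median log2 fold change of 0.09. Inhibitor libraries stood above both DMSO libraries in 4 and below both in 5, where the shares of all genes tested were 19% and 18.3%. At an unadjusted p under 0.05 there was 1 of 16, a share near the 6.96% of all genes tested. It was Hells, a chromatin remodeller that helps DNA methylation and is expressed in dividing cells. Hells was at 5.81 and 7.06 FPKM with DMSO, against 21.5 and 19.1 with ACSS2i (log2 fold change 1.52 ± 0.23, SE; limma, unadjusted p = 0.000598, adjusted p = 0.319, and 0.162 to 1 under the alternative settings). Uhrf1, which brings the maintenance methyltransferase to replicated DNA, was at 2.80 and 6.52 against 6.29 and 13.2 FPKM, with overlapping groups. The 10 G2 and mitosis genes stood higher in the same libraries, with sums given above.

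Arid4b, a chromatin factor reported to act at the imprinted Snrpn domain, was at 45.6 and 40.5 FPKM with DMSO, against 30.1 and 28.7 with ACSS2i (log2 fold change -0.53 ± 0.22, SE; limma, adjusted p = 0.733). Tet3, which oxidises methylated cytosine, was at 9.72 and 9.53 against 6.88 and 6.88 FPKM. In both genes the inhibitor libraries were the lower ones, and neither passed.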

How the data were processed

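RNA of 4 CAD libraries, 2 per group, was compared. Per the submitters' processing notes, Cufflinks 2.2.1, Cuffdiff, STAR 2.3.0 and bcl2fastq 02.14.01.07 were used, and mm10 is the build. How the values were adjusted, and which annotation was used, is not given in the sources used here. Deposited values carry no unit and were taken as FPKM because Cufflinks is named. One gene of 24341 lacked a value in 1 library and was left out.

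Tests used log2(FPKM + 1) for genes whose mean over the 4 libraries reached 1 FPKM, with limma 3.58.1 in R 4.3.3 (mean-variance trend, two-sided, Benjamini-Hochberg adjustment over all genes tested, threshold 0.05). The fit was run on simulated data, with an outcome required for signs and effect sizes only and none for missed genes or false calls. Each library's depth relative to DMSO replicate 1 was read from the commonest ratio of values up to 0.5 FPKM, and nominal reads came from 234 single-transcript genes of GENCODE M21 whose values stood at whole multiples within 1%. A depth wrong by a whole factor is possible. Intervals and limits cover counting error only.

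The 10 genes and all lists were chosen with earlier results of these data known. Named besides the 10 were, from the lists of other imprinted, imprint maintenance and insulin-like growth factor genes, the 4 tested genes with the smallest unadjusted p and any tested gene without overlap and a log2 fold change of at least 1 in size, and rows of the 5 loci with a mean of at least 1 FPKM. The marker lists and the G2 and mitosis list are given as counts and sums. Usp29, Magel2, Igf2os and Dio3 lie below that mean and were named after their values were seen. The alternatives were 2 pseudocounts, 2 filters, 2 scalings, a replicate block and leaving out each library. Of the 10 genes, 8 had a RefSeq promoter window, and that of Peg3 is shown.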

Additional observations from a re-analysis of the deposited data

How the results depend on the processing

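Of the 11 alternative settings, those that kept every library passed 0 of the tested genes among the 10, higher or lower. Dlk1, H19, Igf2 and Ndn were tested only without a filter. Meg3, Rian and Mirg were not tested with a filter at a mean of 5 FPKM. The count of all genes called, 3, was 0 without a filter, 6 with a pseudocount of 0.1, 0 with a pseudocount of 5 and 8 with the replicate block. It ran from 13 to 26 with 1 library left out: 13 without ACSS2i replicate 1, 16 without ACSS2i replicate 2, 26 without DMSO replicate 1 and 21 without DMSO replicate 2, where the lone library is assumed to vary like the other group. The sample labels do not say whether shared replicate numbers pair the libraries. The replicate differences of the groups had a correlation of -0.0165 across genes, which cannot decide this, because unshared noise also lowers it. The block changed no call among the tested genes of the 10. With 1 library left out the maternal median ran from -1.09 to 1.04, and without a filter the paternal median was 0.0737 over 6 genes. Rian was at -0.045 with a pseudocount of 0.1. Leaving out 1 library turned the direction of log2 fold changes, which then ran from -0.248 to 1.04 for Meg3, -1.11 to 1.3 for Rian, -1.09 to 0.367 for Mirg, -0.628 to 0.869 for Peg10, -1.07 to 0.617 for Rtl1, -0.755 to 0.499 for 6430411K18Rik, -0.164 to 0.978 for Zim3 and -0.493 to 0.12 for Sgce. The same ranges were -0.14 to 0.367 for Ube3a, -0.0774 to 0.372 for Snhg14, -1.26 to 0.365 for Snurf, -0.375 to 0.168 for Gm7367 and -1.11 to 0.411 for A330076H08Rik. The causes were not tested. Depth limits H19, Ndn and Dlk1, which rest on 1, 2 and 16 nominal reads in all.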
